A study of Bos taurus with 36 samples.

Results

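Right rear mammary glands that had been milked 4 times daily (4×) from day 1 to day 21 of lactation were compared with themselves on day 40, after 19 days of milking 2 times daily (2×). Arrays were taken by their labels as 4× glands on day 40 or day 21, which gave 6 of each, 12 of 36 in all, paired by the number of the cow. The cows were multiparous Holsteins, and the left side of each udder was milked 2× throughout. Biopsies came from rear glands on day 21 and again on day 40, and from fore glands on day 23. Each was hybridised to 1 Bovine Genome Array, on which a probe set is a group of oligonucleotides for 1 transcript. In 4× glands, day of lactation, the end of 4× milking and the second biopsy of the same gland changed together and cannot be told apart. The left rear glands of the same cows, milked 2× on both days, shared the days and the repeated biopsy and gave the comparison. All 4× glands were right glands, so side and milking frequency cannot be told apart either.

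Milk is made by secretory epithelial cells that line the alveoli, where caseins and lactose are exported from vesicles and fat leaves in droplets. These cells sit on contractile myoepithelial cells and a stroma of fibroblasts, vessels and immune cells. The frequency of milk removal is known to act within each gland, so that the right and left glands of an udder can be set apart in the same cow. Between the days compared here a dairy cow approaches peak lactation, and the lipid metabolism of the gland and the whole animal adjusts after calving.

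CSN2, which encodes beta-casein of milk, had a log2 signal between 14.58 and 15.07 on the 36 arrays, whose medians lay between 6.04 and 6.15. The 2× array of cow 1 on day 21 stood apart, with a mean absolute deviation of 0.397 from the median of its group, against 0.148 to 0.247 for the other 35 arrays, and a correlation of 0.963 with the mean of its group, against 0.987 to 0.995. Where leaving out cow 1 carried a value printed for 2× glands, or for the difference between glands, across an unadjusted p of 0.05, the value without it is given too. In bulk tissue, fewer cells of a type and less RNA per cell cannot be told apart. The replicates were separate cows, and their number limits the precision.

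In 4× glands 14 of 24016 probe sets changed from day 21 to day 40 at an adjusted p under 0.05 (limma with cow as a block, adjusted by the method of Benjamini and Hochberg), which is 0.0583% of those tested. Of these, 13 fell (0.0541%) and 1 rose (0.00416%). LRP2, MSTN, XPO4, ZNF330 and SFT2D2 fell, SMIM5 rose, and 8 probe sets that fell have no gene name in the annotation used. The change had the same sign in 6 of 6 cows for 13 of the 14 and in 5 of 6 for 1, where 5.3% of all probe sets had the same sign in 6 of 6. The 2 days did not overlap for 3 of the 14, against 0.208% of all probe sets. The 14 were chosen on this same change, so nothing is read from either share. On day 23, in the fore glands, the mean of each of the 14 lay between those of day 21 and day 40. A choice on a wide gap between those days favours this. The share over all probe sets was not counted, so nothing is read from it.

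LRP2 encodes megalin, an endocytic receptor of epithelia that takes up vitamin carriers and lipoproteins. Its lowest, median and highest log2 signals were 4.29, 5.35 and 5.68 in 4× glands on day 40, against 5.31, 6.58 and 7.65 on day 21. Each cow had less on day 40, and the 2 days overlapped only because the day 21 value of cow 1 lay within the range of day 40. The change was −1.50 (SE 0.21), with an adjusted p = 0.000842 from limma, and it lay between −1.99 in cow 3 and −0.75 in cow 1. With each cow left out in turn the adjusted p stayed between 0.0022 and 0.046. The fore glands on day 23 had a mean of 5.75, between 6.65 on day 21 and 5.15 on day 40.

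In the 2× glands of the same cows LRP2 ranged from 4.21 to 6.15 on day 40 and from 4.28 to 6.92 on day 21. The ranges of the 2 days largely overlapped there, and the change was −0.53 (SE 0.21, unadjusted p = 0.017). The change in 4× glands minus that in 2× glands was −0.97 (SE 0.30, unadjusted p = 0.0028, adjusted p = 0.898), and −1.03 without cow 1 (unadjusted p = 0.0035). A difference of this size between the glands did not pass adjustment over all probe sets. The study had placed LRP2 and MSTN in a cluster of genes chosen on an outcome that used the day 21 arrays, so their low levels after day 21 are not independent of that choice.

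MSTN encodes myostatin, a secreted ligand of the TGF-beta family known for limiting muscle growth. Its lowest, median and highest log2 signals were 4.45, 5.16 and 5.66 in 4× glands on day 40, against 5.46, 6.50 and 6.79 on day 21. All cows had less on day 40, and only cow 1 on day 21 lay below any day 40 value. The change was −1.15 (SE 0.23, adjusted p = 0.0431 from limma), from −1.61 in cow 2 to −0.74 in cow 3. With each cow left out in turn the change kept its direction, from −1.23 to −1.06, and the adjusted p lay between 0.0592 and 0.327, above the threshold. A second probe set of MSTN had a change of −0.56 (SE 0.26, unadjusted p = 0.0418, adjusted p = 0.549).

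In 2× glands the first probe set of MSTN ranged from 4.69 to 6.30 on day 40 and from 3.64 to 6.85 on day 21, a change of 0.05 (SE 0.23). The difference between glands was −1.19 (SE 0.32, unadjusted p = 0.00089, adjusted p = 0.898). Without cow 1, whose day 21 value was the 3.64, the change in 2× glands was −0.16 and the difference −1.02 (unadjusted p = 0.0056). Of the 11 skeletal muscle markers measured, 0 passed an unadjusted p of 0.05 in 4× glands in limma, where 8.68% of all probe sets did. Their mean log2 signal lay between 5.74 and 5.94 on day 40 and between 5.69 and 5.97 on day 21.

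**Figure D1:**
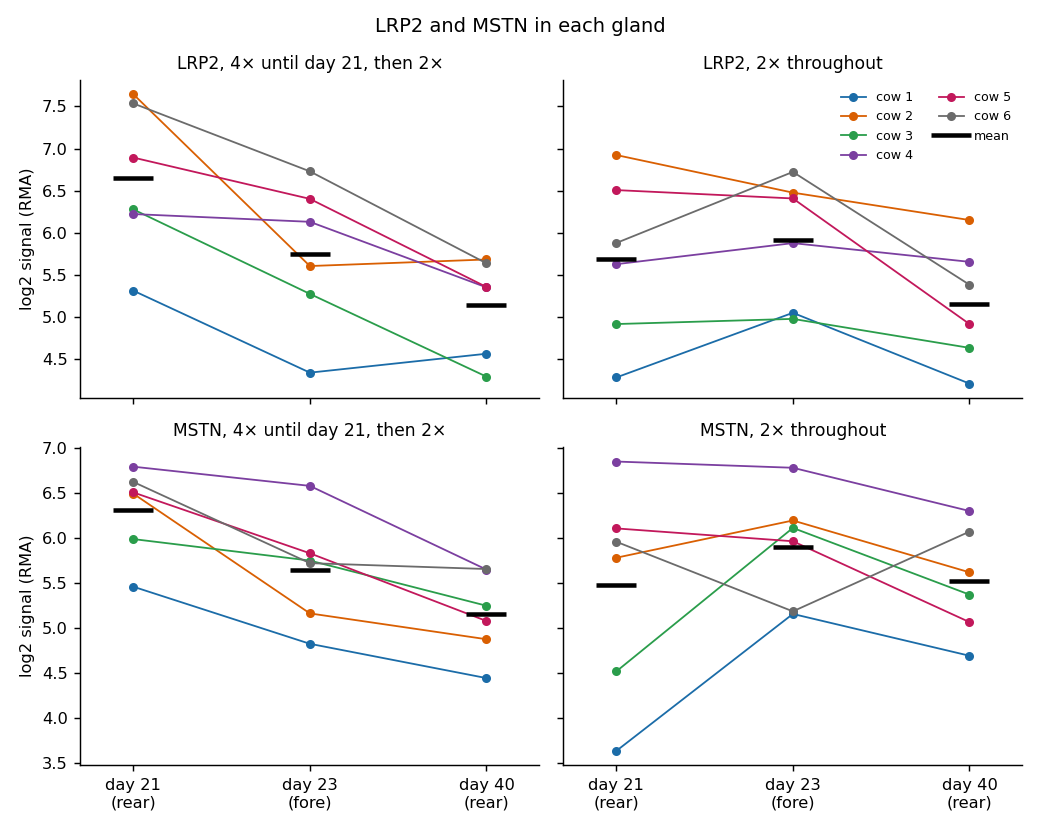
Log2 signal of LRP2 (top) and MSTN (bottom, first probe set) in each cow by day, in 4× glands (left) and 2× glands (right); lines join the arrays of a cow and black bars are means of 6. In 4× glands the mean of LRP2 was 6.65, 5.75 and 5.15 on days 21, 23 and 40, and no cow had more on day 40 than on day 21 for either gene.

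XPO4 is an exportin that carries proteins out of the nucleus. Its log2 signal was 5.78 at the lowest, 6.84 at the median and 7.92 at the highest in 4× glands on day 40, against 6.93, 7.67 and 8.55 on day 21. The ranges overlapped widely because cows differed, and the fall of 0.86 (SE 0.17, adjusted p = 0.0431) came from a lower value in each of the 6. In 2× glands the change was −0.48 (SE 0.17, unadjusted p = 0.0074), and the difference between glands, −0.38, had an unadjusted p = 0.116.

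ZNF330, a zinc finger protein of the nucleolus, had 7.61, 8.04 and 8.73 on day 40, against 8.45, 8.59 and 9.22 on day 21. It fell by 0.70 (SE 0.14, adjusted p = 0.0431), in 6 of 6 cows. SFT2D2 belongs to a family of membrane proteins of vesicle transport. It had 9.89, 10.17 and 10.32 on day 40, against 10.17, 10.60 and 11.16 on day 21, and fell by 0.46 (SE 0.09, adjusted p = 0.0431). In 2× glands ZNF330 and SFT2D2 had changes of −0.22 and −0.15, and their differences between glands had an unadjusted p = 0.018 and 0.0208. Without cow 1 the difference of SFT2D2 was −0.25 (unadjusted p = 0.079) and its change in 2× glands −0.22 (unadjusted p = 0.0308).

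The single probe set that rose belongs to SMIM5, a small membrane protein. Its log2 signal was 6.41, 6.65 and 6.94 on day 40, against 5.96, 6.24 and 6.37 on day 21, with no overlap between the days. The rise was 0.49 (SE 0.09, adjusted p = 0.0431), between 0.29 in cow 6 and 0.66 in cow 3. The change in 2× glands was 0.11 (SE 0.09, unadjusted p = 0.241), and the difference between glands was 0.37 (SE 0.13, unadjusted p = 0.0078, 0.0249 without cow 1).

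Of the 8 unnamed probe sets, the one with the smallest p had 7.96, 8.35 and 8.61 in 4× glands on day 40, against 8.63, 9.05 and 9.12 on day 21. It fell by 0.60 (SE 0.09, adjusted p = 0.000842) with no overlap between the days. Its change in 2× glands was −0.37 (SE 0.09, unadjusted p = 0.00014). Another had the deepest fall of the 8, by 1.06 (SE 0.20, adjusted p = 0.0431), and its change in 2× glands was −0.55 (SE 0.20). The other 6 fell by 0.53 to 0.71.

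Over the 14, the change was of the same sign in 2× glands for 13. It had an unadjusted p under 0.05 there for 9 (10 without cow 1), where 6.79% of all probe sets did. Both changes share 1 estimate of spread, so the 9 are not independent of the choice. The change was larger in 4× glands for 13. The difference between glands had an unadjusted p under 0.05 for 7 of the 14 (6 without cow 1), where 4.82% of all probe sets did. The 14 were chosen on the change in 4× glands, so nothing is read from its larger size or from the share with a difference. LRP2 and the unnamed probe set with the smallest p passed with each cow left out in turn. The count of probe sets that passed was 11 without cow 1, 4 without cow 2, 5 without cow 3 and 2 without cow 4, 5 or 6. With no replicate block it was 0, and LRP2 then had an adjusted p = 0.94.

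**Figure D2:**
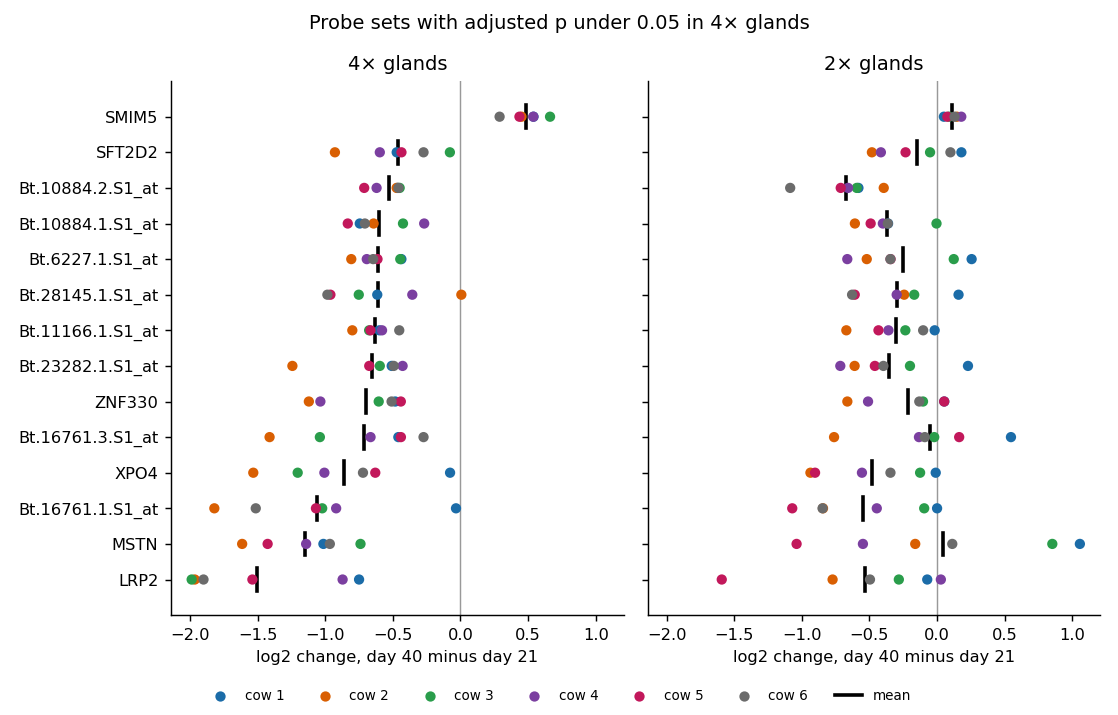
Log2 change from day 21 to day 40 in each cow (points) and its mean (bars) for the 14 probe sets with an adjusted p under 0.05 in 4× glands, shown for 4× glands (left) and 2× glands (right). In 4× glands, on whose change the 14 were chosen, 13 had the same sign in 6 of 6 cows. MSTN was spread on both sides of 0 in 2× glands.

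Changes in 4× glands were small over the array as a whole. The median was 0.02, 5% of probe sets lay below −0.24 and 5% above 0.19, and 3 had a change of 2-fold or more, all lower on day 40. The change was positive for 55.7% of probe sets. At an unadjusted p under 0.01 there were 528 probe sets (2.2%), 152 higher (0.633%) and 376 lower (1.57%), and 35 and 307 after scaling each array to 5 reference genes (UXT, RPS9, RPS15, MRPL39 and EIF3K). Those with at least 1.5-fold as well numbered 42 (0.175%), 7 higher (0.0291%) and 35 lower (0.146%). The 2× glands had 1 probe set past the adjusted p (0.00416%) and 439 at an unadjusted p under 0.01 (1.83%). Of the 439, 147 were higher (0.612%) and 292 lower (1.22%), and scaling to reference genes turned these to 210 and 88. The change in 4× glands minus that in 2× glands passed the adjusted p for 0 probe sets in limma, with 1157 (4.82%) at an unadjusted p under 0.05 and a lowest adjusted p = 0.898. At an unadjusted p under 0.01 there were 141 (0.587%), 71 positive (0.296%) and 70 negative (0.291%), and 1 and 99 after scaling to reference genes.

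**Figure D3:**
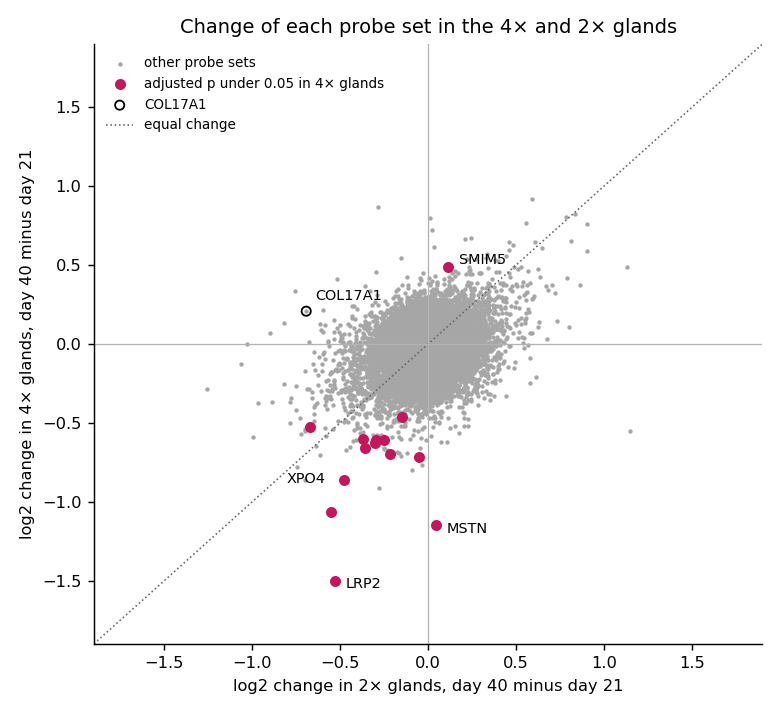
Log2 change from day 21 to day 40 of 24016 probe sets in 4× glands (vertical axis) against that in 2× glands (horizontal axis), with the 14 of an adjusted p under 0.05 in 4× glands in red, COL17A1 circled and a dotted line at equal change. LRP2, at −1.50 and −0.53, and MSTN, at −1.15 and 0.05, lie farthest below the line among the red points.

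Next below the threshold in 4× glands were SLC22A5 and BIRC6. SLC22A5, the carnitine transporter that supplies fatty acid oxidation, had 8.80, 9.19 and 9.45 on day 40, against 9.21, 9.60 and 9.92 on day 21. Its change was −0.45 (SE 0.09, adjusted p = 0.0628), between −0.50 and −0.40 in all 6 cows. BIRC6, a large inhibitor of apoptosis with ubiquitin-conjugating activity, had 6.37, 6.52 and 6.66 on day 40, against 6.63, 6.82 and 7.10 on day 21. The 2 days of BIRC6 met only at their edges, and the change was −0.33 (SE 0.07, adjusted p = 0.0699), with 0.01 in 2× glands and a difference of −0.34 (unadjusted p = 0.0018).

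Other genes with lower values on day 40 and an adjusted p between 0.114 and 0.222 were ZRANB2 and RBM47, which bind RNA, SEC31A of the COPII vesicle coat, ATIC of purine synthesis and MYSM1, a histone deubiquitinase. Their changes lay between −0.44 for ZRANB2 and −0.22 for ATIC, each lower in 6 of 6 cows. GJB2, a gap junction connexin of the mammary epithelium, had 5.48, 6.06 and 6.55 on day 40, against 6.35, 6.63 and 7.37 on day 21, a change of −0.71 (SE 0.18, adjusted p = 0.22). LPAR6, a receptor for lysophosphatidic acid, and HNRNPLL, a regulator of splicing, had changes of −0.69 (SE 0.21) and −0.76 (SE 0.28), with an adjusted p = 0.289 and 0.446.

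Of the genes named for higher values on day 40, SMIM5 alone passed the threshold. MFAP5, a microfibril protein, had 7.93, 9.01 and 10.23 in 4× glands on day 40, against 7.43, 8.08 and 9.08 on day 21. The ranges overlapped, all 6 cows had more on day 40, and the change was 0.92 (SE 0.23, adjusted p = 0.215). DPT, which binds decorin and collagen, had a change of 0.77 (SE 0.19), FBLN1, a basement membrane fibulin, 0.63 (SE 0.16), and SPON2, a secreted matrix protein, 0.32 (SE 0.08), with the same adjusted p = 0.215. TIMP2, an inhibitor of matrix metalloproteinases, had 0.67 (SE 0.17, adjusted p = 0.225), the antiangiogenic factor SERPINF1 0.81 (SE 0.24, adjusted p = 0.305) and GSN, an actin-severing protein, 0.54 (SE 0.16, adjusted p = 0.285). Also named for higher values were PDXP, a phosphatase of pyridoxal phosphate (0.33, SE 0.07, adjusted p = 0.0937), BAG2, a co-chaperone (0.39, SE 0.10), and AVPI1 (0.37, SE 0.10), beside P2RY2, FDFT1 and CCL21, a chemokine.

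The changes in 2× glands of MFAP5, DPT, FBLN1, SERPINF1 and GSN were 0.59, 0.55, 0.48, 0.78 and 0.33, each at an unadjusted p under 0.05, and none of their differences between glands passed it. For SPON2 the change in 2× glands was −0.02 and the difference 0.34 (unadjusted p = 0.0053, 0.026 without cow 1).

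Of the 16 fibroblast and collagen markers measured, 15 had a positive change in 4× glands, where 55.7% of all probe sets did. The median was 0.22 against 0.02 for all probe sets. At an unadjusted p under 0.05, 4 were higher, where 3.44% of all probe sets were. These were COL1A1 (0.36, SE 0.12) and COL3A1 (0.49, SE 0.19), which encode fibrillar collagens, FBLN1 (0.44, SE 0.17 for the probe set with the higher mean) and LOX (0.22, SE 0.10), which cross-links collagen. None of the list passed the adjusted p in limma. Without cow 4, 1 was higher at an unadjusted p under 0.05, where 2.95% of all probe sets were. With no replicate block 0 were, against 2.10% of all probe sets. The mean log2 signal of the list lay between 7.82 and 8.62 in 4× glands on day 40 and between 7.77 and 8.16 on day 21, and the mean change was 0.55 and 0.60 in cows 2 and 4 and −0.09 to 0.19 in the others. In 2× glands the median was 0.15, with 3 higher, where 3.06% of all probe sets were, and 2 without cow 1. The part of stromal cell content in the higher values of matrix genes was not tested.

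Genes of cholesterol synthesis and uptake had the highest median change of the 47 lists in 4× glands. The enzymes of synthesis turn acetyl-CoA through mevalonate, farnesyl diphosphate and squalene to sterols. Of the 16 genes measured, 15 had a positive change in 4× glands, where 55.7% of all probe sets did. At an unadjusted p under 0.05, 9 were higher, where 3.44% of all probe sets were. The median was 0.32. By order in the pathway the 9 were HMGCS1 (0.52, SE 0.24), which makes HMG-CoA, then MVK (0.22, SE 0.08), PMVK (0.32, SE 0.13) and MVD (0.28, SE 0.12) of the mevalonate steps and FDPS (0.39, SE 0.15), which makes farnesyl diphosphate. After these came FDFT1 (0.47, SE 0.12), squalene synthase, and CYP51A1 (0.41, SE 0.14), MSMO1 (0.31, SE 0.12) and NSDHL (0.45, SE 0.16), which demethylate the sterol ring. The adjusted p of FDFT1, the lowest of the list, was 0.215.

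FDFT1 had 8.27, 8.45 and 8.77 in 4× glands on day 40, against 7.67, 8.04 and 8.34 on day 21. All 6 cows had more on day 40, and only the highest value of day 21 reached into the range of day 40. Its change in 2× glands was 0.24 (SE 0.12, unadjusted p = 0.0501, 0.0202 without cow 1) and the difference 0.23 (unadjusted p = 0.165). CYP51A1 had 8.87, 9.46 and 9.68 on day 40, against 8.33, 9.07 and 9.33 on day 21, with more on day 40 in 5 of 6 cows.

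The change over this list differed between cows. The mean change over the 16 genes in 4× glands was 0.56, 0.32, 0.53, 0.04, 0.47 and −0.18 in cows 1 to 6. In 2× glands it was 0.66, 0.46, 0.33, 0.03, 0.56 and −0.36, with a median over the genes of 0.30 and 5 higher at an unadjusted p under 0.05, where 3.06% of all probe sets were. The cows with little or negative change were the same 2, cows 4 and 6, in both glands. The median difference between glands was 0.01, and 1 of the 16 had a positive one at an unadjusted p under 0.05, where 2.51% of all probe sets did. Without cow 1, 6 genes were higher in 4× glands with a median of 0.22 and 4 in 2× glands, and 0 had such a difference.

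**Figure D4:**
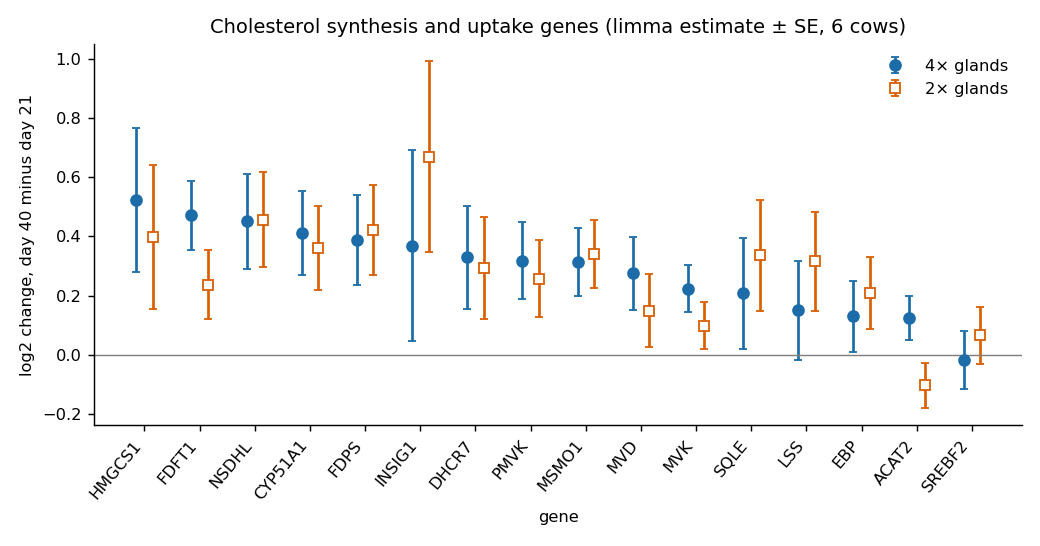
Log2 change from day 21 to day 40 of the 16 genes of cholesterol synthesis and uptake, as limma estimate with its SE (bars, 6 cows), in 4× glands (filled) and 2× glands (open). In 4× glands 15 of 16 lie above 0, with a median of 0.32, and the 2× estimates have a median of 0.30.

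Genes listed as epigenetic regulators encode enzymes of families that write and remove marks on chromatin. Whether each of them, HDAC6 included, acts mainly on chromatin was not examined. Of the 14 measured, 5 were lower on day 40 in 4× glands at an unadjusted p under 0.05, where 5.24% of all probe sets were lower. None passed the adjusted p in limma. The 5 were HDAC6 (−0.20, SE 0.08) and SIRT1 (−0.34, SE 0.14), deacetylases, DNMT3A (−0.20, SE 0.08), which methylates DNA, KDM6A (−0.33, SE 0.13), which demethylates histone H3, and CREBBP (−0.25, SE 0.11), an acetyltransferase. CREBBP had 8.55, 8.65 and 8.79 on day 40, against 8.68, 8.91 and 9.29 on day 21, and was lower in 6 of 6 cows. The mean of the list was lower in 6 of 6 cows, by 0.09 to 0.18. So were the means of the lists of translation factors and of fatty acid uptake. Those of STAT3 involution signalling and of serotonin, PTHLH and local feedback were higher in 6 of 6. For the epigenetic regulators the median was −0.15 in 4× glands. In 2× glands their median was 0.00, with 0 lower and 1 higher, HDAC7 (0.26), where 3.73% and 3.06% of all probe sets were. The difference between glands was negative at an unadjusted p under 0.05 for 1 of the 14, HDAC6, where 2.31% of all probe sets were, and for 0 without cow 1. With no replicate block 2 were lower in 4× glands, where 2.78% of all probe sets were under that setting.

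Among translation factors and the mTORC1 pathway, which couples nutrients to protein synthesis, 3 of 24 were lower at an unadjusted p under 0.05, where 5.24% of all probe sets were. They were the kinase RPS6KB1 (−0.35, SE 0.10, adjusted p = 0.283), TSC1 (−0.33, SE 0.13), an inhibitor of the pathway, and PRKAA2 (−0.37, SE 0.16), a subunit of the energy sensor AMPK, whose log2 signal was low, between 3.73 and 5.29. The list's median was −0.07, and 0 were lower with no replicate block, where 2.78% of all probe sets were under that setting. The 2× median was 0.00, with 1 higher and 2 lower, and 1 and 0 without cow 1. Of all probe sets 3.06% were higher and 3.73% lower in 2× glands. Of 30 genes of translocation into the endoplasmic reticulum and of vesicle coats, 3 were lower, again where 5.24% of all probe sets were. These were SRP72 (−0.24, SE 0.08) of the signal recognition particle, SEC62 (−0.29, SE 0.14) of the translocon and TMED10 (−0.16, SE 0.08), a cargo receptor. The median was −0.06, and 0.01 without cow 4, where 1 was lower. In 2× glands 4 were higher, where 3.06% of all probe sets were, with a median of 0.12, and without cow 1 there were 0 and the median was 0.03.

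Oxidative phosphorylation genes encode subunits of the respiratory chain and ATP synthase. Of 49, 45 had a positive change in 4× glands, where 55.7% of all probe sets did, with a small median of 0.10. At an unadjusted p under 0.05, 3 were higher, a share near the 3.44% of all probe sets. These were ATP5MC3 (0.20, SE 0.08), COX6C (0.22, SE 0.10) and COX8A (0.16, SE 0.07). Without cow 1 there were 0 and the median was 0.04. In 2× glands 6 were higher, where 3.06% of all probe sets were, with a median of 0.09. Without cow 1, 0 were higher in 2× glands, with a median of 0.07. Scaling to reference genes turned the 2× values to 21 and 0.16. Of all 24016 probe sets 1283 were then higher in 2× glands at an unadjusted p under 0.05 in limma, and the median was 0.06.

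The 7 milk protein genes had changes between −0.03 and 0.03 in 4× glands. At an unadjusted p of 0.05 in limma 0 passed, where 8.68% of all probe sets did. CSN2 had a median of 15.04 on both days. Signals this near the top of the scale can be saturated, so that these values bear little on whether the transcripts changed. LALBA, alpha-lactalbumin of lactose synthesis, had 14.41, 14.45 and 14.48 on day 40, against 14.43, 14.45 and 14.49 on day 21. Of 14 genes of de novo fatty acid synthesis 1 was lower at an unadjusted p under 0.05, near the 5.24% of all probe sets. It was SCD5, a desaturase (−0.25, SE 0.09, 6 of 6 cows), while SCD, the main desaturase of milk fat, had 0.04 (SE 0.11).

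In the prolactin, growth hormone and STAT5 axis, which maintains secretion, 2 of 12 genes were lower in 4× glands at an unadjusted p under 0.05, where 5.24% of all probe sets were. PRL alone was higher (0.20, SE 0.09), where 3.44% of all probe sets were. The median was −0.03. PRLR, the prolactin receptor, had 8.19, 8.78 and 9.11 on day 40, against 8.76, 9.12 and 9.43 on day 21, a change of −0.37 (SE 0.16, unadjusted p = 0.0302, 0.0771 without cow 1, adjusted p = 0.515). NR3C1, the glucocorticoid receptor, had −0.32 (SE 0.13, unadjusted p = 0.0186) in 4× glands and 0.04 in 2× glands. The values of HLF, a transcription factor of the circadian output, and CRY1, a clock repressor, were −0.43 (SE 0.17) and −0.35 (SE 0.17). Each of these 4 had an adjusted p over the threshold, and the differences between glands had an unadjusted p over 0.05, except for CRY1 without cow 1 (−0.55, unadjusted p = 0.0451).

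Of 22 acute phase and antimicrobial genes, 2 were higher and 1 lower in 4× glands at an unadjusted p under 0.05, with a median of 0.12. Of all probe sets 3.44% were higher and 5.24% lower. Of the 22, 5 were genes of the study's clusters, LTF among them. These were chosen on samples that include the ones compared here, so their values are not independent of that choice. LBP, which presents bacterial lipopolysaccharide, had 8.21, 8.61 and 8.79 in 4× glands on day 40, against 8.87, 9.10 and 9.54 on day 21, with no overlap and a change of −0.55 (SE 0.23, adjusted p = 0.492). LTF, the iron-binding lactoferrin, had 11.36, 12.35 and 12.61 on day 40, against 10.87, 11.69 and 12.48 on day 21, a change of 0.54 (SE 0.24, adjusted p = 0.52) with more on day 40 in 6 of 6 cows. IL6R, a subunit of the interleukin-6 receptor, had −0.37 (SE 0.13) in 4× glands and −0.48 (SE 0.13) in 2× glands.

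Differences between glands were sought with the change in 4× glands minus that in 2× glands, which no probe set passed after adjustment. Among genes named by the rule for this difference, the smallest p values on the positive side were those of COL17A1, a collagen of hemidesmosomes, and P2RY2, a receptor for extracellular ATP. COL17A1 ranged from 6.08 to 6.58 in 4× glands on day 40 and from 5.81 to 6.60 on day 21, and from 5.30 to 6.57 in 2× glands on day 40 and from 6.12 to 7.24 on day 21. Its change was 0.21 (SE 0.15) in 4× glands and −0.69 (SE 0.15) in 2× glands, a difference of 0.90 (unadjusted p = 0.00026), or of 0.87 without cow 1. P2RY2 had 0.27 (SE 0.07) in 4× glands and −0.11 in 2× glands, a difference of 0.37 (unadjusted p = 0.00034, 0.0011 without cow 1). CKB, a creatine kinase, RASIP1, which acts in vessel formation, and SKA3 of the kinetochore had differences of 0.47, 0.48 and 0.33. On the negative side, beside MSTN and BIRC6, were SEC16B of endoplasmic reticulum exit sites (−0.63, unadjusted p = 0.0014), ZZEF1 (−0.43) and STRADB, a pseudokinase (−0.38).

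Of 15 endothelial markers, 7 had a positive change in 4× glands, where 55.7% of all probe sets did, with a median of −0.02. At an unadjusted p under 0.05, 1 was lower, near the 5.24% of all probe sets. Without cow 1, 11 were positive, with a median of 0.07, and 0 were lower. The mean of the list changed by −0.29 to 0.45 in the 6 cows. The 2× median was 0.17, with 4 higher, where 3.06% of all probe sets were, and 0.19 with 4 without cow 1. The marker that was lower in 4× glands was TIE1, an endothelial receptor, with −0.26 (SE 0.11) in 4× glands and 0.18 (SE 0.11) in 2× glands, a difference of −0.44 (unadjusted p = 0.0068). Without cow 1 its change in 2× glands was 0.25 (unadjusted p = 0.0262). For TEK, the angiopoietin receptor, and PLVAP, a protein of fenestrated endothelium, the differences were −0.43 (unadjusted p = 0.0443, 0.0886 without cow 1) and −0.52 (unadjusted p = 0.0109, 0.0603 without cow 1). In all, 4 of the 15 endothelial markers had a negative difference at an unadjusted p under 0.05, where 2.31% of all probe sets did, and 1 without cow 1, which was TIE1 (−0.47, unadjusted p = 0.0045).

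The study had sorted genes into 4 clusters by their response to milking frequency. The choice was made on samples that include these, so the values are not independent of it. At an unadjusted p under 0.05, 3.44% of all probe sets were higher and 5.24% lower in 4× glands, and 3.06% and 3.73% in 2× glands. Of the 61 genes of cluster 1, 41 had a positive change in 4× glands, where 55.7% of all probe sets did, with a median of 0.10. In limma 0 of them passed the adjusted p, with 1 higher and 1 lower at an unadjusted p under 0.05. The median of cluster 1 in 2× glands was −0.25, with 5 lower, and −0.15 with 3 lower without cow 1. Among its members, CHI3L1, a chitinase-like protein, had 6.57, 8.09 and 9.44 in 4× glands on day 40, against 5.60, 6.44 and 10.46 on day 21, a change of 0.80 with an SE of 0.78. CLU, a secreted chaperone, had 0.26 (SE 0.41), EGR1, an early transcription factor, −0.19 (SE 0.43), and KRT8, a luminal keratin, 0.38 (SE 0.31), and the ranges of the 2 days overlapped for each. The 3 genes of cluster 2 had a median of 0.13 in 4× glands, with 0 past an unadjusted p of 0.05 in limma, and −0.82 in 2× glands, with 2 lower (−0.77 and 2 without cow 1). The 8 of cluster 3 had a median of −0.23 in 4× glands, with 3 positive and 1 lower, and 0.49 in 2× glands, with 3 higher (0.09 and 1 without cow 1). For the 3 genes of cluster 4, LRP2 and MSTN among them, the median was −1.15 in 4× glands and 0.05 in 2× glands, and −0.16 in 2× glands without cow 1.

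Of 15 luminal progenitor and ductal regulators, 12 had a positive change in 4× glands, where 55.7% of all probe sets did, with a median of 0.09. At an unadjusted p under 0.05, 1 was lower, SOX9, near the 5.24% of all probe sets. The median was −0.18 in 2× glands, with 3 lower, where 3.73% of all probe sets were, and −0.06 with 2 without cow 1. Of the 15, 5 were genes of the study's clusters, which were chosen on samples that include these. The medians of the list are thus not independent of that choice, nor are the values of SOX9, SOX4, THBS1 and LPIN1 below. SOX9, a transcription factor, had 6.44, 7.31 and 7.94 in 4× glands on day 40, against 7.78, 7.89 and 8.56 on day 21. Its change was −0.78 (SE 0.36, unadjusted p = 0.0361, adjusted p = 0.535) in 4× glands and −0.74 (SE 0.36) in 2× glands, where it was −0.58 (unadjusted p = 0.0719) without cow 1. SOX4, a related factor, had −0.35 (SE 0.31) and −0.44 (SE 0.31). IGF1, THBS1 and LPIN1, an insulin-like growth factor, a matricellular protein and a phosphatidate phosphatase, had 0.10 (SE 0.11), 0.26 (SE 0.29) and 0.11 (SE 0.35) in 4× glands, and leaving out 1 cow turned the sign of each.

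**Figure D5:**
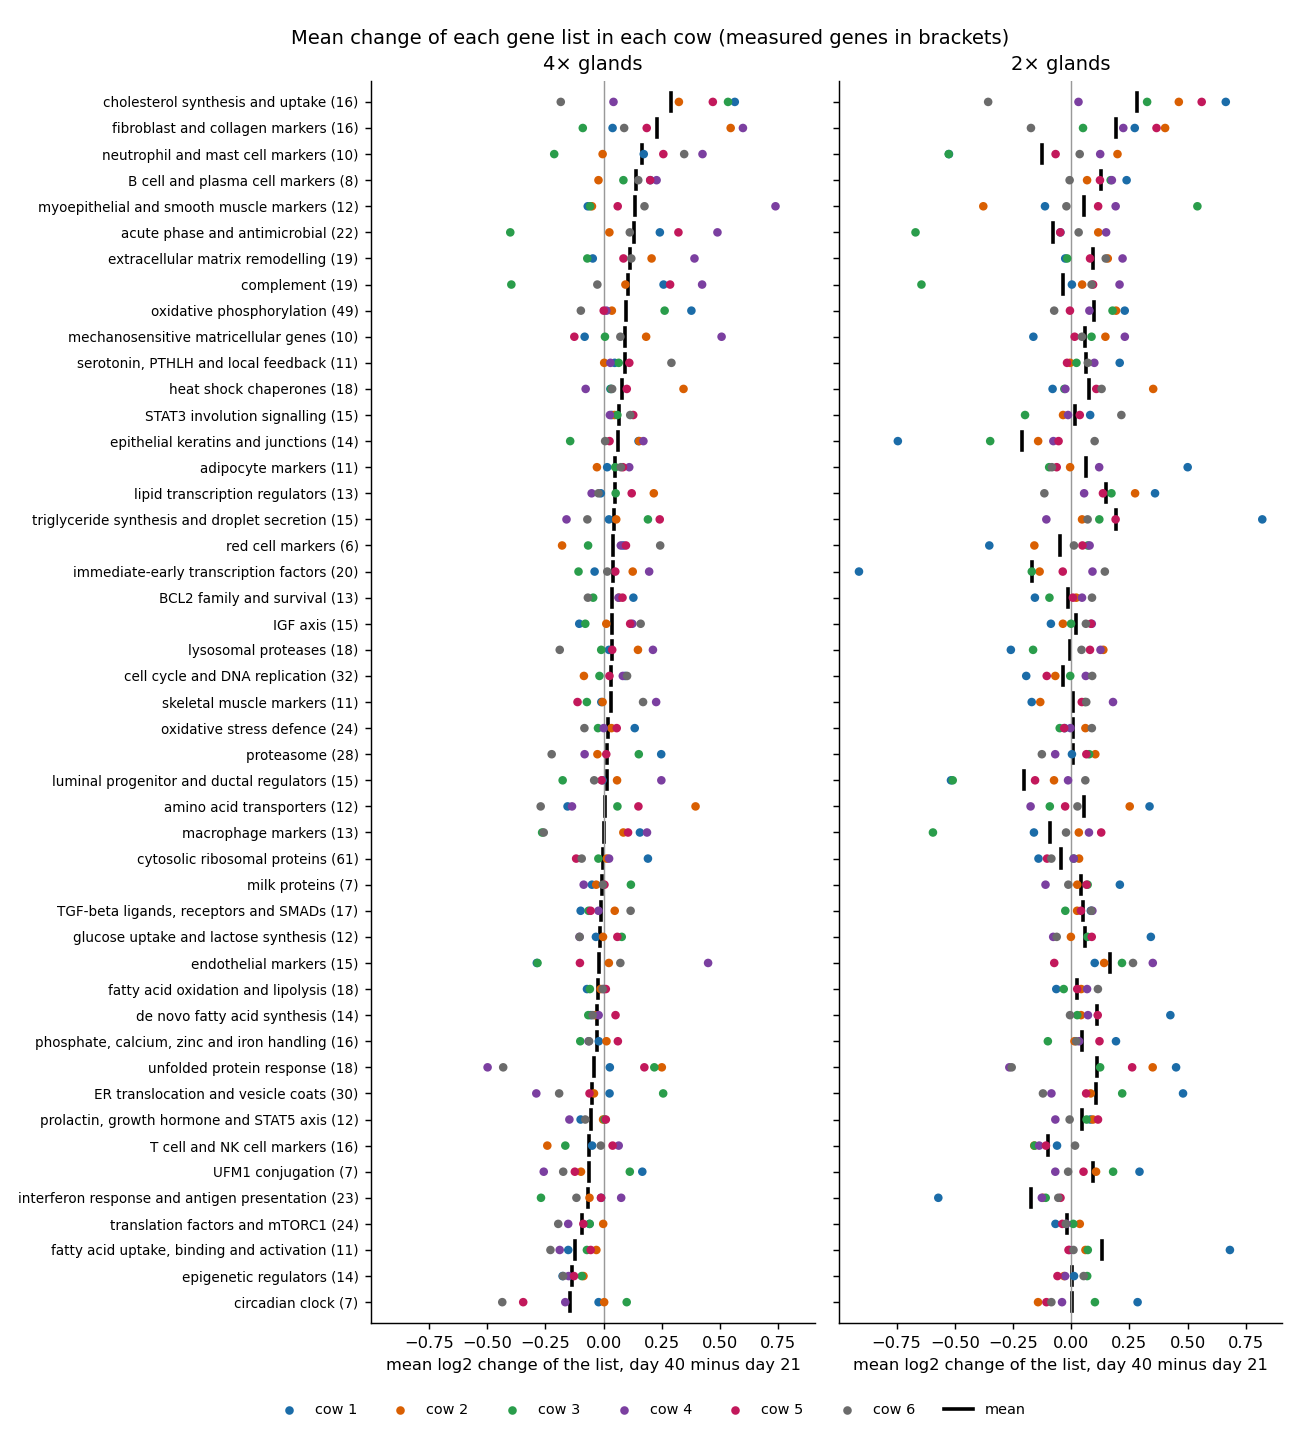
Mean log2 change from day 21 to day 40 of each of 47 gene lists in each cow (points) and over 6 cows (bars), in 4× glands (left) and 2× glands (right), ordered by the mean in 4× glands. Cholesterol synthesis stands at the top in both, with cow 6 below 0. The epigenetic regulators were below 0 in 6 of 6 cows in 4× glands and in 3 of 6 in 2× glands. In 4× glands translation factors and fatty acid uptake were also below 0 in 6 of 6. STAT3 involution signalling and serotonin, PTHLH and local feedback were above 0 in 6 of 6.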

How the data were processed

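Mammary biopsies of 6 cows in 6 groups (4× or 2× gland, lactation days 21, 23 and 40; 36 arrays) were grouped from their labels. The deposited values were log2 signals that the authors made from the probe signals with the Robust Multichip Average, which corrects background, normalizes across arrays and summarizes each probe set; its version is not given in the sources used here. The file held 24128 probe sets; leaving out 112 controls left 24016. No sample column was left unmapped. Of those, 7491 had a mean log2 value under 5, near background. Probe level signals, milk yields and histology were not analysed here.

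Differential expression was fitted with limma (version 3.58.1, R version 4.3.3; lmFit followed by eBayes, two-sided) on all 36 arrays with group means and cow as a fixed block, with Benjamini-Hochberg adjustment over all probe sets tested. The labels give samples of a cow the same number, which pairs them. After group means were removed, the day 40 and day 21 arrays of a cow correlated in 6 of 6 cows in 4× glands (r from 0.237 to 0.451, the highest with any cow's day 21 array in 5 of 6) and in 6 of 6 in 2× glands (0.381 to 0.724, the highest in 6 of 6). The fit was tested on simulated data. The annotation of the array names 13318 probe sets with 1 symbol and 86 with several, and leaves 10724 unnamed. Unnamed probe sets of the study's clusters, LRP2 among them, took the gene name that the study gives, where it gives one. Some list members were named in this way, 5 of the 15 luminal progenitor and ductal regulators among them.

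Named are the 12 genes with the smallest p in each direction in 4× glands and the 6 with the largest change at p under 0.01, the 5 with the smallest p in each direction for the difference between glands (all with 1 symbol, a mean of at least 5 and 5 or 6 cows moving one way), up to 3 members of each list with the smallest p, genes the study discusses and marker genes. Of these, not all are described; further list members past an unadjusted p of 0.05, the unnamed probe sets and SCD were added after their values were seen. In 47 lists, a gene was represented by its probe set with the highest mean. Members and lists were chosen with earlier results of these data known. There were 17 alternative settings. They changed the replicate block (none, or random), the arrays fitted, the moderation (none, or with a trend and robust), the weighting of arrays, the scaling (to reference genes, or to the median of each array) and the probe sets entered (without dim ones, with controls, or 1 per gene), and left out each cow. For the list counts, taking the probe set with the smallest p was also tried. Python 3.11.15 with pandas 2.3.3 and matplotlib 3.10.9 served for tables and figures.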

Additional observations from a re-analysis of the deposited data

Results flagged for a closer look

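Of 144 sets of 6 within-cow changes in 4× glands, 97 of genes and 47 of list means, 6 held a cow far from the other 5, where chance gives about 1 in 20, or 7.2. KRT14, a basal keratin, changed by 2.96 in cow 4 against −0.54 to 0.07 in the others, and the mean of the myoepithelial and smooth muscle markers by 0.74 in the same cow against −0.07 to 0.18. IGF1 changed by 0.61 in cow 6 against −0.06 to 0.08, and the mean of the list of serotonin, PTHLH and local feedback by 0.29 against 0.00 to 0.11. Among the 8 unnamed probe sets that fell, 1 changed by −1.24 in cow 2 against −0.67 to −0.43. CSN2 changed by −0.087 in cow 1 against −0.01 to 0 in the others.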

How the results depend on the processing

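With no replicate block, in place of cow as a fixed block, the 14 probe sets past an adjusted p of 0.05 in 4× glands became 0, and 1 with a random replicate block. They were 25 when only the arrays compared were fitted, 2 without moderation, 70 with array weights, 4 after scaling to reference genes and 4 with 1 probe set per gene (9155 tested). Leaving out each cow gave 2 to 11. At an unadjusted p under 0.01 the 528 became 207 with no replicate block, 1214 with array weights, 342 after scaling to reference genes and 168 with 1 probe set per gene, and 309 to 644 with each cow left out.

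In 2× glands the 1 probe set became 0 with no replicate block, with only the arrays compared, after scaling to reference genes and with 1 probe set per gene, and 0 to 6 with each cow left out. The 439 at an unadjusted p under 0.01 became 185 with no replicate block, 145 with 1 probe set per gene and 242 to 542 with each cow left out. For the difference between glands the 141 (71 positive, 70 negative) became 45 with no replicate block, 331 with array weights, 87 without dim probe sets and 36 with 1 probe set per gene, and 63 to 186 with each cow left out. After scaling to reference genes 1 was positive and 99 negative, and after centring arrays on their median 47 and 99. The count past the adjusted p was 0 under every setting. Of the list genes in 4× glands, 67 had an unadjusted p under 0.05, 24 with no replicate block and 51 to 65 with each cow left out.

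All 14 probe sets kept their direction under every setting in which they were tested. Changes of replicate block or moderation left the estimates as they were. Leaving out a cow cannot turn the sign where 6 of 6 cows agree, as for 13 of the 14. The result was thus largely fixed in advance. With each cow left out in turn the sign turned for SCD (−0.011 to 0.092), EGR1 (−0.51 to 0.090), THBS1 (−0.026 to 0.51), LPIN1 (−0.073 to 0.24), IGF1 (−0.0032 to 0.13) and KRT14 (−0.15 to 0.55), none of which passed the adjusted p. Fewer genes or cows were tested with 1 probe set per gene and with cows left out; the cause of the other shifts was not tested.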

Other observations

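Of 13 macrophage, 16 T and NK cell and 8 B and plasma cell markers, 0 had an unadjusted p under 0.05 in 4× glands in limma. Of all probe sets 8.68% did. The medians of these markers were −0.03, −0.04 and 0.17 in 4× glands. The 10 neutrophil and mast cell markers all had a positive change there, with a median of 0.15 (0.16 without cow 1). Of all probe sets 55.7% had a positive change, and 50.5% with dim ones left out. The mean log2 signal of these 10 was low, 5.56 on day 40 and 5.40 on day 21, and 1 was a gene of the study's clusters. At an unadjusted p under 0.05 in limma 1 was higher, the mast cell tryptase TPSB2 (0.22, SE 0.09), where 3.44% of all probe sets were. In 2× glands 2 macrophage, 4 T and NK cell and 2 neutrophil and mast cell markers were lower, where 3.73% of all probe sets were, and 1, 4 and 2 without cow 1. CCL21, a chemokine that guides lymphocytes and dendritic cells, had 5.62, 6.04 and 6.14 in 4× glands on day 40, against 5.39, 5.60 and 5.85 on day 21, a change of 0.35 (SE 0.09, adjusted p = 0.215) in 6 of 6 cows. Of 32 genes of the cell cycle and DNA replication 0 had an unadjusted p under 0.05, where 8.68% of all probe sets did, and the median was 0.05. Genes of fatty acid uptake, binding and activation had a median of −0.10 in 4× glands and 0.18 in 2× glands, or 0.05 without cow 1. Their mean in 4× glands was lower in 6 of 6 cows, as for epigenetic regulators and translation factors.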
